A study of Mus musculus with 6 samples.

Results

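The 44 genes described here encode ligands, receptors, intracellular mediators, early target genes and secreted or intracellular regulators of TGF-beta, BMP and activin signalling. They were chosen by name, with earlier results of these data known, among 55487 mouse genes in a count table from whole dorsal skin, and all 44 were found there. Polyadenylated RNA was sequenced from 6 libraries in 2 groups of 3, all on day 2 of treatment with DPCP (diphencyprone), a sensitizer used to set off contact allergy. One group also received clodrosome, clodronate-loaded liposomes used to deplete phagocytic cells (spelled Codrosome in the sample titles), and the control group received encapsome, liposomes without clodronate. The strain, sex and age of the mice are not given in the sources used here, and skin without DPCP or without liposomes was not analysed here. The letters A, B and C stand for a group's libraries in table order, and a shared letter pairs nothing between groups. Whether the libraries stand for separate animals is not stated, and the p-values below therefore measure only the spread between libraries.

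TGF-beta ligands are secreted in a latent complex with a binding protein, and once released they act through the type II receptor Tgfbr2 and the type I receptor Tgfbr1, which phosphorylates Smad2 and Smad3. BMPs act through Bmpr2 or activin type II receptors and type I receptors such as Bmpr1a, which phosphorylate Smad1, Smad5 and Smad9. Both branches share Smad4, and secreted antagonists such as noggin and gremlin hold BMPs away from their receptors. In skin, BMP signals are known for keeping hair follicle stem cells at rest and TGF-beta2 from the dermal papilla for opposing them, while TGF-beta1 is known for driving matrix production by fibroblasts.

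The libraries held between 26649396 and 35566351 counts, except clodrosome library A with 116965654. The share of counts in rRNA genes was 0.334% to 0.481% in encapsome A, clodrosome C and clodrosome A and 0.788% to 0.845% in the other 3, a division that crosses the groups and that no label names. All 15 macrophage markers were lower in clodrosome skin, with a summed level of 754 to 1766 CPM (counts relative to the scaled library size) against 4986 to 6476 CPM in encapsome skin. Of 11 fibroblast markers 8 were lower and 0 higher, with sums of 4053 to 6392 against 10523 to 11809 CPM. Basal keratinocyte markers (5 of 8) and hair follicle epithelium markers (5 of 12) were higher, at 23882 to 24669 against 16315 to 20306 CPM and 6026 to 7083 against 4293 to 4887 CPM. These counts use an adjusted p of 0.05 in edgeR, at which 13.0% of all tested genes were lower and 9.41% higher. No macrophage or fibroblast marker was at 0 in any library. In bulk skin, fewer cells of a type and less RNA per cell cannot be told apart, and the part that these shifts have in the results below was not tested.

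Of the 44 genes, 11 passed an adjusted p of 0.05 in the edgeR quasi-likelihood test, or 25.0%, against 22.4% of the 17988 genes tested, so that their share was close to the background. Clodrosome skin was lower for 8 of them, where 13.0% of all tested genes were lower, and higher for 3, where 9.41% of all were higher. That split moved with the analysis: 9 were lower and 7 higher with the rRNA share as a further term, 10 and 6 without the filter on low counts, and 6 and 6 without clodrosome library B. Over all genes the main analysis gave 2343 lower and 1692 higher, and upper-quartile scaling 2132 and 2091. The groups of 3 libraries did not overlap for 20 of the 44 (13 lower, 7 higher), against 40.2% of all genes. The median log2 fold change of the 44 was -0.05 (0.01 over all genes), and 35 of them lay within 0.5 of 0 on the log2 scale. Among those that passed, Tgfb1 and its receptors Tgfbr1, Tgfbr2 and Tgfbr3, the ligands Bmp2 and Bmp4, the antagonist Grem1 and the target Id2 fell, and the ligand Bmp7, the mediator Smad3 and the target Id1 rose. For Tgfb1, Tgfbr1, Tgfbr3, Smad3 and Grem1 the call held under all 13 alternative analyses, including the removal of each library in turn, and for the other 6 it did not.

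**Figure D1:**
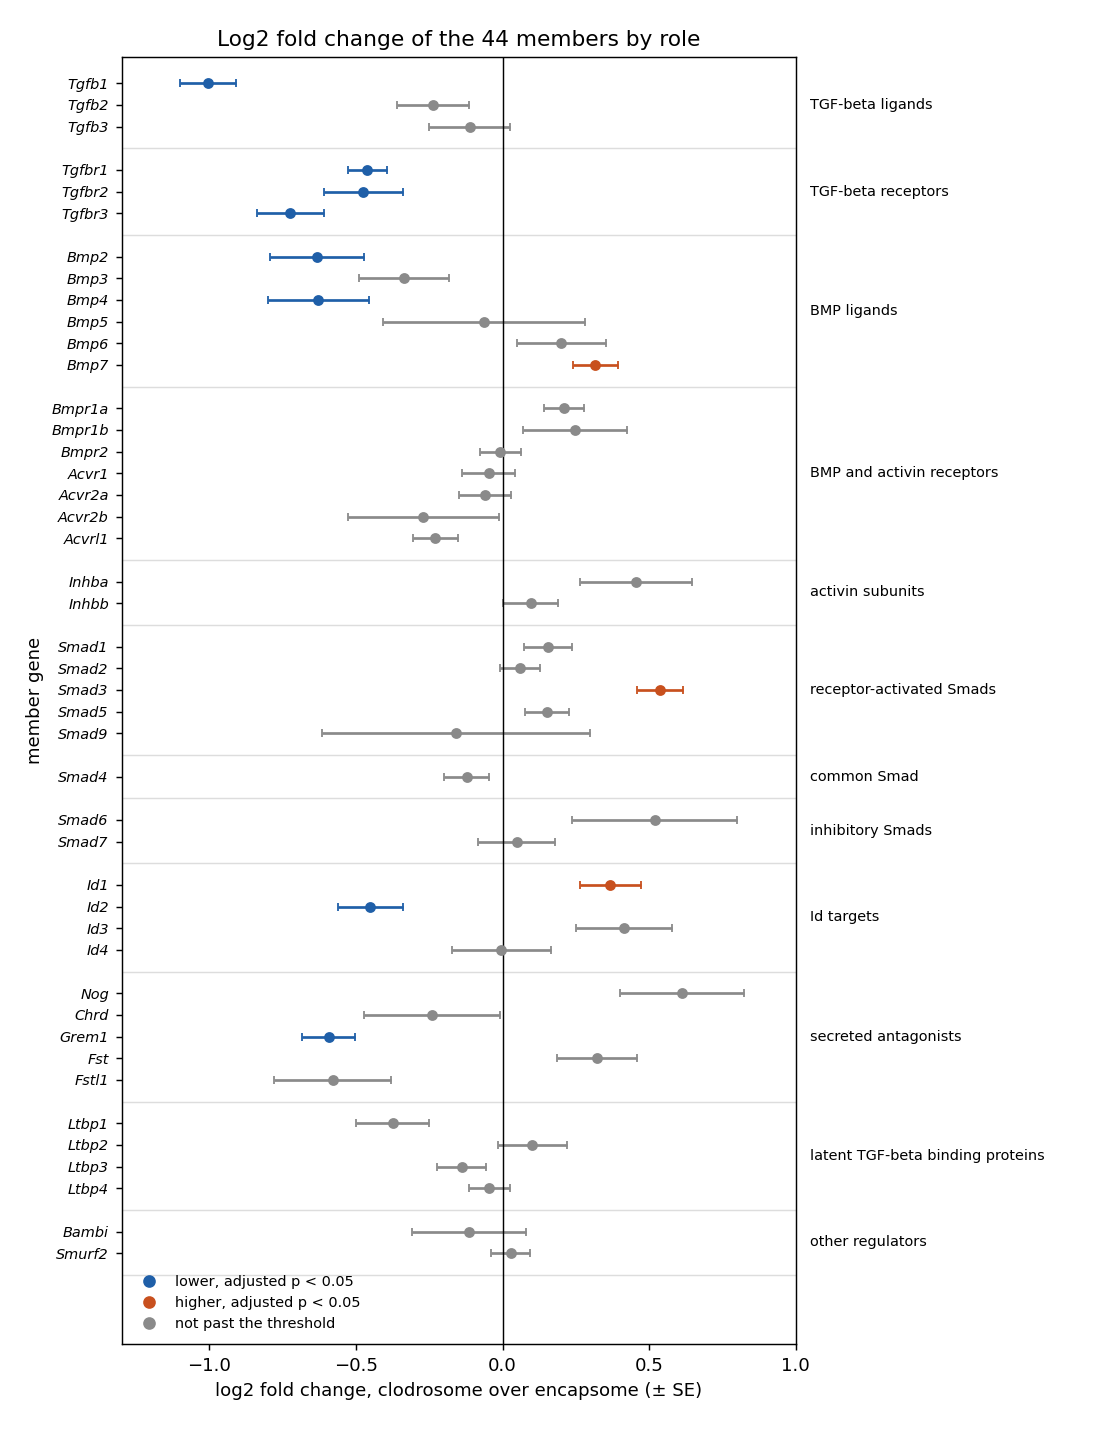
Log2 fold change (clodrosome over encapsome, x axis) of each of the 44 genes (y axis, grouped by role), with the standard error as a bar. Blue points are lower and orange points higher at an adjusted p under 0.05 in edgeR, grey points did not pass, and all 3 TGF-beta receptors lie to the left with Tgfb1 farthest out at -1.004.

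Promoter sequences are shown for 4 of the 5 genes whose call held throughout. They are the 250 bases before an annotated RefSeq start in GRCm38.p6 (the assembly of mm10), read 5′ to 3′ on the gene's strand. Tgfb1 lies at chr7:25686752-25687001 on the plus strand, Tgfbr1 at chr4:47352972-47353221 on the plus strand, Smad3 at chr9:63757995-63758244 on the minus strand and Grem1 at chr2:113758649-113758898 on the minus strand. Capitals mark GGCGCC, a GC-rich element known to bind the BMP Smads.
Tgfb1: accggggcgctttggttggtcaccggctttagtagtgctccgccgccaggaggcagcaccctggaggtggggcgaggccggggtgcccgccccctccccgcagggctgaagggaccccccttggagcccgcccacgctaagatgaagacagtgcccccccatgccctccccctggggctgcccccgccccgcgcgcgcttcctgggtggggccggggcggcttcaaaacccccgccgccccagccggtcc
Tgfbr1: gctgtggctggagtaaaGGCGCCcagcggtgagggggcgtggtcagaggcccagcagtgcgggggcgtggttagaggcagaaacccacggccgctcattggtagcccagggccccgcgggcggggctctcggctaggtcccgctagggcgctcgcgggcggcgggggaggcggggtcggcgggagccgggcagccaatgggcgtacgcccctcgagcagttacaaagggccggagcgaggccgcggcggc
Smad3: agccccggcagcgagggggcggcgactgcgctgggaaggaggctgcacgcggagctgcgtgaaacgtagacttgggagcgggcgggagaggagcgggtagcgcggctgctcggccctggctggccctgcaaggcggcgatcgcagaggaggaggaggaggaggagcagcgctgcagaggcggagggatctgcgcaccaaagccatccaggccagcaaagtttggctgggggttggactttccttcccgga
Grem1: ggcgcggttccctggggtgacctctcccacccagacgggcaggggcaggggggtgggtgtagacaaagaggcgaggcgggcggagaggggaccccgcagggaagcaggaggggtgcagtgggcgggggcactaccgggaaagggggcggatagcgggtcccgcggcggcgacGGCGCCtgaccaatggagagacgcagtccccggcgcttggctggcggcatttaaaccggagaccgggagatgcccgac

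Of the 44 genes, 31 had at least 1 such window in the search (39 windows), among them 7 of the 11 called genes. Windows on chromosome 18 were left out for the 44 genes, so Smad2, Smad4, Smad7 and Bambi were not searched. They were not left out of the windows of all genes given for comparison. The windows were searched on both strands for 3 motifs, none of which contains another. They were the Smad palindrome GTCTAGAC, the Smad-binding box CAGACA, which reads as TGTCTG on the other strand, and the palindrome GGCGCC. The last of these stood in a window of 11 of the 31 genes and in 9.59% of all 32851 windows of that length. For this and the other motifs a gene counts if any of its windows holds a match. Some genes have more than 1 window, so counts of genes and shares of windows are unlike units. Among called genes it stood at -233 from the start of Tgfbr1, at -78 from that of Grem1 and at -231 from that of Id2, and it was not in the windows of Tgfb1 or Smad3. CAGACA stood in a window of 5 genes (17.1% of all windows), including a second annotated start of Tgfbr1 at -203, and GTCTAGAC in 0 of the 31 (0.167% of all windows). The 39 windows searched had a median GC content of 66.4%, against 52.4% over all windows. This bears on how often an element made of G and C is met. These matches describe letters only.

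Tgfb1 encodes TGF-beta1, the ligand made by many immune and connective tissue cells. Its level in clodrosome libraries A, B and C was 45.5, 55.5 and 43.7 CPM, and in encapsome libraries A, B and C it was 93.7, 96.1 and 100.3 CPM. Every clodrosome library lay far below every encapsome library. The fall was 2.01-fold (log2 -1.004 ± 0.096 SE, adjusted p = 1.92e-04 in edgeR), the greatest change in size among the 44 genes. The macrophage and fibroblast marker sums fell with it, and clodrosome B, which had the lowest sum of both, had the highest Tgfb1 level of its group. The part of either cell type in the fall was not tested.

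Tgfb2, the isoform known from the dermal papilla, stood at 6.07, 6.08 and 5.59 CPM against 7.13, 7.04 and 6.74 CPM. The groups did not overlap, but the difference did not pass (log2 -0.24, adjusted p = 0.200 in edgeR). Tgfb3 stood at 9.77, 9.31 and 9.54 against 11.4, 11.2 and 8.37 CPM, with encapsome C below all clodrosome libraries (log2 -0.11, adjusted p = 0.604 in edgeR). Other genes' exons cover 12.4% of the exonic bases of Tgfb3, so its count is less certain. Within a library the ratio of Tgfb1 to Tgfb2 per kilobase was 8.62, 10.5 and 8.995 in clodrosome skin and 15.1, 15.7 and 17.1 in encapsome skin, a quantity that does not depend on how libraries are scaled.

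All 3 TGF-beta receptors fell. Tgfbr1, the type I kinase, was at 57.1, 52.8 and 56.4 CPM in clodrosome skin against 74.8, 77.2 and 77.0 CPM, with a gap between the groups much wider than the spread within either (log2 -0.46 ± 0.068, adjusted p = 0.00154 in edgeR). Tgfbr3, betaglycan, which presents ligand to the signalling receptors, was at 73.4, 53.1 and 68.3 against 102.1, 111 and 109 CPM. Its groups were also far apart, with clodrosome B lowest (log2 -0.72 ± 0.113, adjusted p = 0.00214 in edgeR).

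Tgfbr2, the type II receptor that binds the ligand first, was at 268, 178 and 214 CPM in clodrosome skin and 327, 306 and 285 CPM in encapsome skin. The groups did not overlap, yet clodrosome A lay near the lowest encapsome library (log2 -0.47 ± 0.136, adjusted p = 0.0342 in edgeR). This call was lost with scaling by library total alone (adjusted p = 0.0523 in edgeR) and without clodrosome B, clodrosome C or any 1 encapsome library (up to 0.113). Within the clodrosome group Tgfbr2 and Tgfbr3 were highest in A and lowest in B, as were both the fibroblast marker sums (6392, 4053 and 5099 CPM in A, B and C) and the macrophage marker sums (1766, 754 and 1439 CPM). In encapsome skin Tgfbr2 had the order of the fibroblast sums (11809, 11472 and 10523 CPM), but Tgfbr3 did not, being lowest in A. Col1a1, Col1a2, Col3a1 and Fbln1 had the order of these sums there. Dcn had the order of Tgfbr3, and the remaining fibroblast markers had neither order. Neither receptor had the order of the macrophage sums there, which were highest in A and lowest in B. Gpnmb alone gave 1748, 655 and 1234 CPM of these sums in A, B and C. Adgre1, Cd68, Mertk, Cd5l and Trem2 had the same order as Gpnmb. Cd163, C1qa, C1qb, C1qc and Csf1r had the order of Tgfbr2, and the remaining macrophage markers had neither order.

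Bmp2 and Bmp4 are closely related BMP ligands, Bmp4 being known from the dermal papilla and dermis. Bmp2 was at 3.51, 3.09 and 3.07 CPM in clodrosome skin and 5.68, 4.88 and 4.49 CPM in encapsome skin (log2 -0.63 ± 0.161, adjusted p = 0.0212 in edgeR). Bmp4 was at 2.996, 2.43 and 2.43 against 3.71, 4.19 and 4.38 CPM (log2 -0.63 ± 0.174, adjusted p = 0.0301 in edgeR). Neither pair of groups overlapped, but both genes were expressed at a low level. The call of Bmp2 was lost without clodrosome C, encapsome A or encapsome B (adjusted p up to 0.0747 in edgeR), and that of Bmp4 without clodrosome B, clodrosome C, encapsome B or encapsome C (up to 0.103) and with the rRNA share as a further term (0.0674).

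Bmp7, a ligand known from epithelium, moved the opposite way: it was at 71.9, 65.5 and 74.2 CPM in clodrosome skin and 58.8, 57.2 and 53.9 CPM in encapsome skin. The groups did not overlap and the rise was small (log2 0.32 ± 0.076, adjusted p = 0.0164 in edgeR). It was lost without clodrosome C, encapsome B or encapsome C (adjusted p up to 0.0845 in edgeR). The basal keratinocyte and hair follicle epithelium marker sums were also higher in clodrosome skin. Within that group the basal sums (23882, 24669 and 24280 CPM) were highest in B, where Bmp7 was lowest. Krt14 alone gave 14762, 16534 and 15750 CPM of these sums. Of the basal markers Krt14 and Krt15 were highest in B there. Krt5, Trp63, Itga6, Itgb4, Col17a1 and Lamb3 were lowest in B, as Bmp7 was. The follicle sums there (6954, 6026 and 7083 CPM) had the order of Bmp7, but Krt17 alone gave 5822, 4890 and 5937 CPM of them. In encapsome skin neither sum had that order: both were lowest in B (16315 and 4293 CPM), while Bmp7 was lowest in C. Per kilobase, the ratio of Bmp7 to Bmp4 was 13.4, 15.1 and 17.1 in clodrosome skin against 8.86, 7.63 and 6.89 in encapsome skin.

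The remaining BMP ligands did not pass. Bmp3, which lacks the usual signalling activity of BMPs, was at 4.44, 4.31 and 4.76 against 4.81, 5.92 and 6.36 CPM, with groups that did not overlap (log2 -0.34, adjusted p = 0.148 in edgeR). Bmp6 differed by 0.20 on the log2 scale (adjusted p = 0.386 in edgeR). Bmp5 was at 0.438 to 0.743 CPM, and 46.7% of its exonic bases are covered by another gene's exons, so nothing can be read from it.

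**Figure D2:**
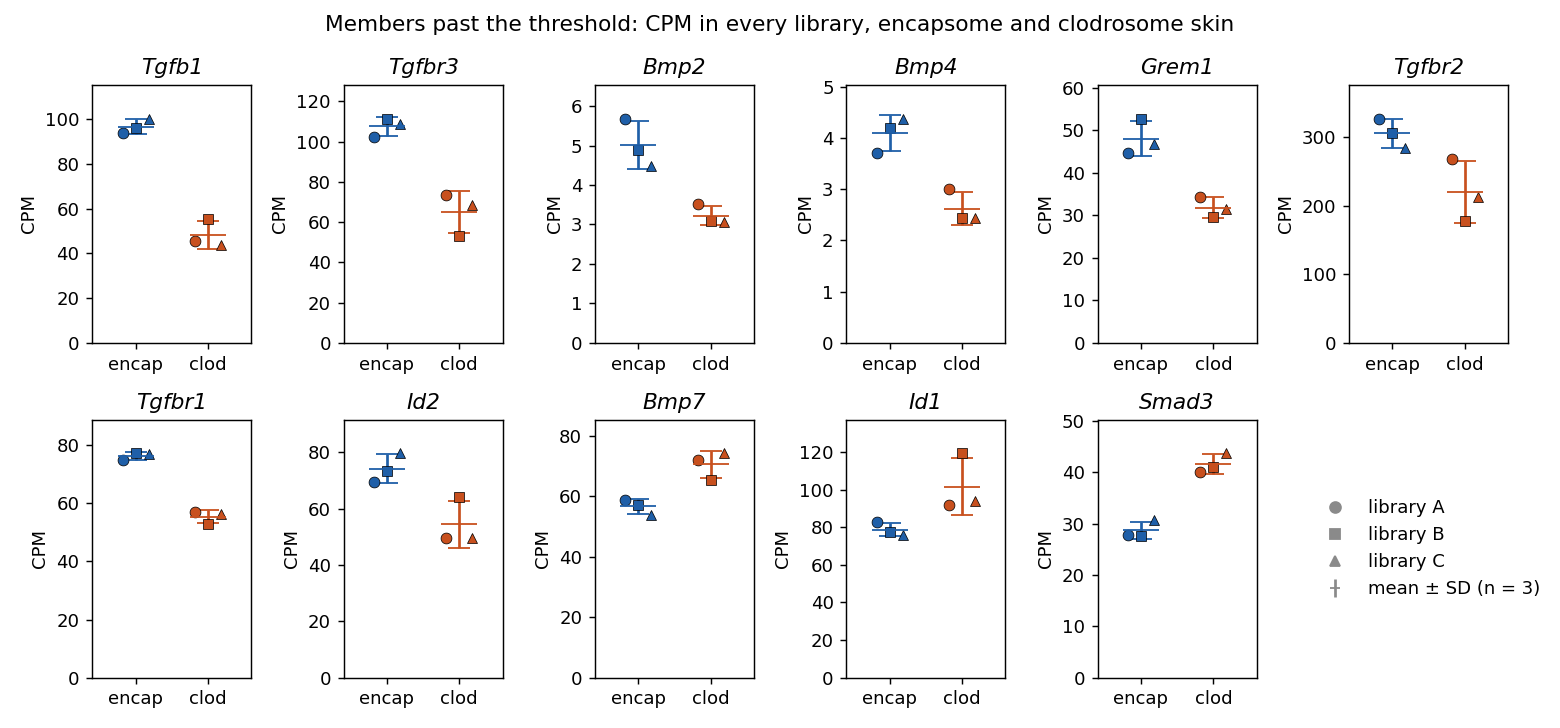
CPM (y axis, from 0) of the 11 genes that passed the threshold, in each encapsome (blue) and clodrosome (orange) library, with library A as a circle, B as a square and C as a triangle and the mean ± SD (n = 3) as a bar. The groups do not overlap for any of the 11, and Tgfb1 runs from 43.7 to 55.5 in clodrosome skin against 93.7 to 100.3 CPM in encapsome skin.

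Of the 7 BMP and activin receptors 0 passed in edgeR (2 at an unadjusted p under 0.05) and 0 in DESeq2. All 3 TGF-beta receptors passed in both, though the call of Tgfbr2 was lost in 6 of the 13 alternatives. Of all tested genes 22.4% passed in edgeR, and the 2 small sets were not tested against each other. Bmpr1a, the main BMP type I receptor of follicle epithelium, came nearest on the higher side, at 149, 154 and 159 against 138, 129 and 132 CPM. Its groups did not overlap (log2 0.21 ± 0.069, adjusted p = 0.0559 in edgeR), and it passed under upper-quartile scaling, with library totals alone, with a minimum mean of 1 CPM and without clodrosome B (adjusted p from 0.0292 to 0.0478 in edgeR). Acvrl1 (ALK1), a receptor of endothelium, was at 28.5, 27.1 and 27.4 against 33.6, 33.0 and 30.7 CPM (log2 -0.23 ± 0.076, adjusted p = 0.0572 in edgeR).

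The shared type II receptor Bmpr2 stood at 141, 136 and 149 against 139, 148 and 141 CPM, with intermixed libraries (log2 -0.01 ± 0.071, and 0.03 under upper-quartile scaling). Acvr1, Acvr2a, Acvr2b and Bmpr1b differed by between -0.27 and 0.25 on the log2 scale, with overlapping groups. In each library the ratio of Tgfbr1 to Bmpr1a per kilobase was 0.373, 0.332 and 0.345 in clodrosome skin and 0.525, 0.583 and 0.566 in encapsome skin. Tgfbr1 and Bmpr1a thus stood in a different proportion in every library of one group from every library of the other. Other type I receptors were not paired in this way.

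Inhba and Inhbb encode the beta subunits of activin A and activin B. Inhba was at 39.5, 53.1 and 49.5 CPM in clodrosome skin and 24.0, 43.0 and 36.4 CPM in encapsome skin. The groups overlapped and encapsome A was well below the rest (log2 0.46 ± 0.192, adjusted p = 0.121 in edgeR). The difference passed with DESeq2 (adjusted p = 0.0411), without the filter on low counts (6.62e-05 in edgeR) and with the rRNA share as a further term (0.0179 in edgeR). Inhbb differed by 0.10 on the log2 scale (adjusted p = 0.513 in edgeR).

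Smad3, which carries the TGF-beta and activin signal to DNA, was the only Smad among the 8 measured to pass. It was at 40.02, 41.0 and 43.7 CPM in clodrosome skin and 27.8, 27.5 and 30.6 CPM in encapsome skin. The groups were far apart and tight, and the rise was 1.45-fold (log2 0.54 ± 0.079, adjusted p = 0.00156 in edgeR), opposite in sign to those of the receptors above it. Its partner Smad2 was at 65.3, 63.0 and 61.7 against 62.9, 60.4 and 59.2 CPM (log2 0.06, adjusted p = 0.577 in edgeR). The ratio of Smad3 to Smad2 per kilobase was 0.970, 1.03 and 1.12 in clodrosome skin against 0.701, 0.722 and 0.820 in encapsome skin.

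Among the BMP Smads, Smad5 was at 82.2, 71.7 and 78.8 against 68.1, 70.4 and 71.1 CPM. Its groups did not overlap, though clodrosome B and encapsome C lay side by side (log2 0.15, adjusted p = 0.174 in edgeR, and 0.0473 without clodrosome B). Smad1 differed by 0.16 on the log2 scale (adjusted p = 0.211 in edgeR), and Smad9 was barely expressed, at 0.228 to 0.939 CPM. The common Smad4 differed by -0.12 (adjusted p = 0.299 in edgeR).

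The inhibitory Smads did not pass either. Smad6, which restrains BMP receptors, was at 3.35, 6.58 and 3.35 CPM in clodrosome skin against 2.55, 3.16 and 3.43 CPM. Clodrosome B alone was high and the groups overlapped (log2 0.52 ± 0.282, adjusted p = 0.225 in edgeR, and 0.0141 with the rRNA share as a further term). Smad7, a feedback inhibitor of the TGF-beta branch, differed by 0.05 (adjusted p = 0.831 in edgeR).

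The Id genes, early targets of BMP Smads that block basic helix-loop-helix factors, did not move as a block. Id1 was at 91.6, 119 and 93.9 CPM in clodrosome skin and 82.5, 77.6 and 75.8 CPM in encapsome skin. The groups did not overlap, and clodrosome B stood above the rest (log2 0.37 ± 0.105, adjusted p = 0.0335 in edgeR). The call was lost without any 1 encapsome library (adjusted p from 0.0581 to 0.115 in edgeR).

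Id2, which immune cells also express, went the other way, at 49.4, 64.2 and 49.6 against 69.6, 73.5 and 79.6 CPM. The groups did not overlap (log2 -0.45 ± 0.111, adjusted p = 0.0182 in edgeR), and the call was lost without clodrosome A, clodrosome C, encapsome B or encapsome C (up to 0.0731). The ratio of Id1 to Id2 per kilobase was 3.90, 3.90 and 3.98 in clodrosome skin and 2.49, 2.22 and 2.00 in encapsome skin, so that the high level of clodrosome B, shared by both genes, was not seen in the ratio.

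Id3 was at 35.8, 57.3 and 42.8 CPM against 30.9, 38.9 and 31.6 CPM, with clodrosome B highest again and the groups overlapping (log2 0.41 ± 0.164, adjusted p = 0.101 in edgeR). It passed with DESeq2 (adjusted p = 0.0387), and in edgeR without the filter, with the rRNA share as a term and without clodrosome A (adjusted p up to 0.0278). Id4 was also highest in clodrosome B, at 6.37, 9.83 and 7.47 against 8.01, 8.08 and 7.42 CPM, and its group means were close to equal.

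Grem1 encodes gremlin, a BMP antagonist secreted by fibroblasts. It was at 34.4, 29.6 and 31.4 CPM in clodrosome skin and 44.6, 52.7 and 46.7 CPM in encapsome skin. The groups did not overlap and the fall was 1.51-fold (log2 -0.59 ± 0.091, adjusted p = 0.00199 in edgeR). The fibroblast marker sum fell with it. Within the clodrosome group Grem1 had the order of that sum. In encapsome skin it was lowest in A, where the sum was highest. The fibroblast markers differed in this: Col1a1, Col1a2, Col3a1 and Fbln1 were highest in A there, and Postn and Vim in C. Dcn, Lum, Pdgfra, Pdgfrb and Dpt were highest in B, as Grem1 was, and Dcn had the full order of Grem1.

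Nog encodes noggin, which binds the same ligands and is known from the dermal papilla and follicle mesenchyme. It was at 2.24, 1.78 and 2.13 CPM in clodrosome skin and 1.29, 1.31 and 1.45 CPM in encapsome skin, groups that did not overlap. At this low level the difference did not pass (log2 0.61 ± 0.211, adjusted p = 0.0663 in edgeR, and 0.0479 without clodrosome B). The ratio of Grem1 to Nog per kilobase was 6.27, 6.80 and 6.03 against 14.1, 16.4 and 13.2, the largest difference among the 7 ratios computed. Chordin (Chrd) was at 1.91 to 3.16 against 2.52 to 3.60 CPM (log2 -0.24, adjusted p = 0.509 in edgeR).

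Follistatin (Fst), which neutralises activin, was at 52.3, 68.5 and 54.8 CPM in clodrosome skin and 38.2, 51.8 and 50.3 CPM in encapsome skin. The groups touched without overlapping (log2 0.32 ± 0.136, adjusted p = 0.124 in edgeR), and the difference passed in edgeR without the filter (adjusted p = 0.00637) and with the rRNA share as a term (0.00212). Fst and Inhba were each lowest in encapsome A and highest in clodrosome B. Fstl1, a follistatin-like protein of mesenchyme, was at 497, 273 and 296 against 528, 570.5 and 496 CPM. Clodrosome A reached the encapsome level while B and C were far below it (log2 -0.58 ± 0.199, adjusted p = 0.0661 in edgeR), and without clodrosome A the log2 fold change was -0.90 with an adjusted p of 5.19e-04.

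**Figure D3:**
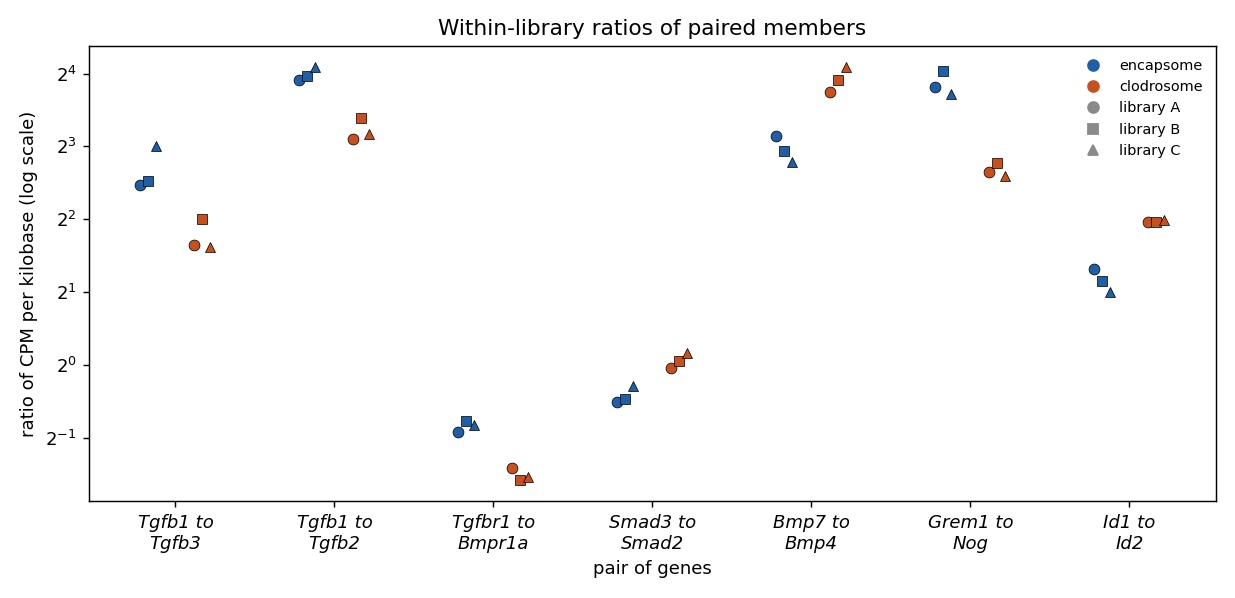
Ratio of CPM per kilobase between pairs of genes (y axis, log scale) in each encapsome (blue) and clodrosome (orange) library, with the letter given by the marker shape. The pairs were chosen after their values were seen and carry no test; the libraries of the groups do not overlap in any of the 7 pairs, and Grem1 to Nog runs from 6.03 to 6.80 in clodrosome skin against 13.2 to 16.4 in encapsome skin.

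The latent TGF-beta binding proteins hold the ligand in the matrix. Of the 4, 0 passed in edgeR (1 at an unadjusted p under 0.05), where 22.4% of all tested genes passed, and 1 in DESeq2. Ltbp1 came nearest, at 51.3, 34.8 and 42.9 CPM against 56.7, 56.6 and 54.7 CPM. Its groups did not overlap, and the clodrosome libraries were spread widely (log2 -0.38 ± 0.124, adjusted p = 0.0582 in edgeR). It passed with DESeq2 (adjusted p = 0.0276) and in edgeR without clodrosome A (0.00868), without the filter and with the rRNA share as a term. Ltbp2, Ltbp3 and Ltbp4 differed by between -0.14 and 0.10 on the log2 scale. The pseudoreceptor Bambi and the ubiquitin ligase Smurf2, which degrades receptors and Smads, differed by -0.12 and 0.03.

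Levels of different genes were compared only per kilobase of gene length. In encapsome skin the highest of the 44 were Fstl1 at 108 ± 7.63 CPM per kilobase (SD, n = 3), Id1 at 67.8 ± 3.02, Tgfbr2 at 37.4 ± 2.59 and Id2 at 30.4 ± 2.07. The lowest were Smad9 at 0.119 ± 0.068 and Bmp5 at 0.142 ± 0.039 CPM per kilobase. Tgfb1 was the most abundant ligand there at 19.2 ± 0.667 CPM per kilobase, followed by Bmp7 at 14.1 ± 0.618. In clodrosome skin Bmp7 stood highest of the ligand genes at 17.6 ± 1.12 CPM per kilobase, with the activin subunit gene Inhbb at 9.88 ± 0.891 and Tgfb1 at 9.57 ± 1.25, which did not differ beyond their spread. The ranges of Tgfb1 and Bmp7 did not overlap in either group. Bmp2 and Bmp4 stood at 1.41 ± 0.171 and 1.82 ± 0.153 CPM per kilobase in encapsome skin and 0.906 ± 0.069 and 1.17 ± 0.144 in clodrosome skin, far below Bmp7. Among receptors, Tgfbr2 and Bmpr1a (21.0 ± 0.771 in encapsome, 24.3 ± 0.800 in clodrosome skin) were the most abundant in both groups.

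**Figure D4:**
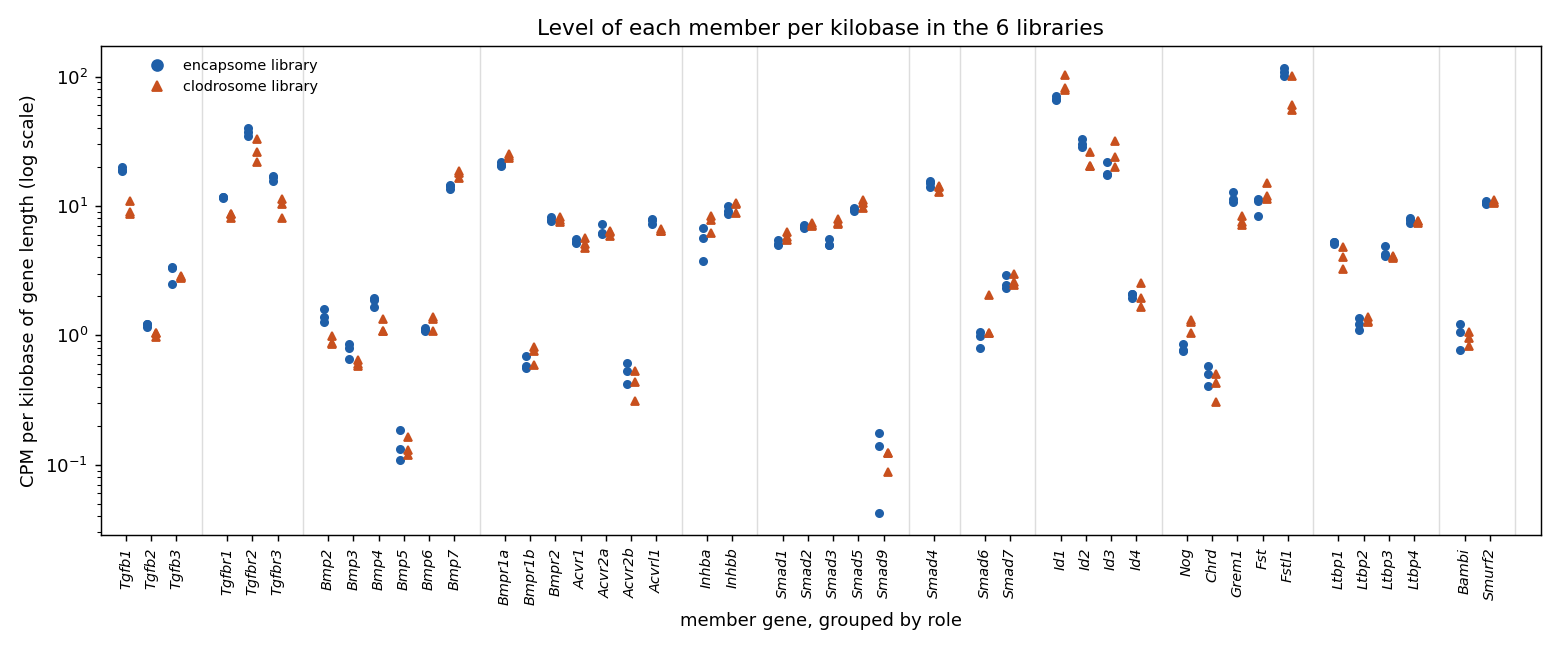
Level of each of the 44 genes in CPM per kilobase of gene length (y axis, log scale) in the 3 encapsome (blue circles) and 3 clodrosome (orange triangles) libraries, grouped by role along the x axis. Levels run from 0.119 (mean, Smad9) to 108 (mean, Fstl1) in encapsome skin, and Tgfb1 stands above Bmp7 in encapsome skin and below it in clodrosome skin.

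Other genes of the pathway were taken from lists by role, 107 in all, of which 91 could be tested (Smad7, also one of the 44, is among the targets). Of these 37 passed (40.7%), 11 higher and 26 lower, with a median log2 fold change of -0.09, where 22.4% of all tested genes passed, 9.41% higher and 13.0% lower. The counts by list below stand against the same shares. The lists overlap with one another and with the marker lists: Col1a1, Col1a2, Dcn and Acta2, for instance, also mark fibroblasts or smooth muscle.

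Proteins that release or present latent TGF-beta were lower for 8 of 16 and higher for 2. Those that fell included the membrane protease Mmp14 (log2 -1.03, adjusted p = 9.72e-05 in edgeR), the matrix protein Emilin1 (-0.97, 1.33e-04) and Nrros (-0.92, 4.40e-04), which presents latent TGF-beta1 on macrophages and microglia. Nrros was at 64.6, 48.5 and 54.5 CPM against 104, 112 and 101 CPM, a separation like that of Tgfb1. The integrin subunit Itgb8, part of an activator of the latent ligand on epithelium and other cells, rose (log2 0.55, adjusted p = 0.00113 in edgeR).

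Of 17 further secreted modulators 7 were lower and 2 higher. Sostdc1, an epithelial BMP antagonist known from hair follicles, rose most, from 10.7, 8.70 and 7.50 CPM in encapsome skin to 37.4, 26.5 and 24.6 CPM in clodrosome skin (log2 1.72 ± 0.184, adjusted p = 3.11e-04 in edgeR). It thus moved opposite to the antagonist Grem1. The decorin gene Dcn (log2 -1.25, adjusted p = 0.00169 in edgeR), the protease gene Htra3 (-0.997, 0.00289) and Bmp1 (-0.77, 0.00314), a procollagen protease that is no BMP despite its name, fell.

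Of 11 further ligands tested, 3 fell and 0 rose: Gdf15 (log2 -1.68, adjusted p = 0.00460 in edgeR), Gdf3 (-1.82, 0.00772) and Gdf10 (-0.78, 0.0109). Among 7 further receptors and co-receptors Hjv, the BMP co-receptor hemojuvelin known from muscle and liver, rose from 15.01, 16.5 and 16.03 to 23.7, 27.2 and 26.2 CPM (log2 0.70, adjusted p = 9.18e-04 in edgeR), and skeletal muscle markers (4 of 7 higher) rose beside it. Rgmb fell (log2 -0.28, adjusted p = 0.0370 in edgeR), a call lost in 11 of the 13 alternatives.

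Of 19 intracellular regulators 2 were higher and 2 lower, led by the ubiquitin ligase gene Wwp1 (log2 -0.60, adjusted p = 0.00544 in edgeR). Of 23 textbook targets 5 fell and 5 rose. The collagen genes Col1a1 (log2 -1.90, adjusted p = 1.62e-04 in edgeR) and Col1a2 (-1.61, 4.16e-04) and the transcription factor Snai1 (-1.33, 0.00213) fell, while the cell cycle inhibitor Cdkn1a rose (0.40, 0.0183, a call lost in 3 alternatives). Target genes of the pathway therefore did not share one direction.

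**Figure D5:**
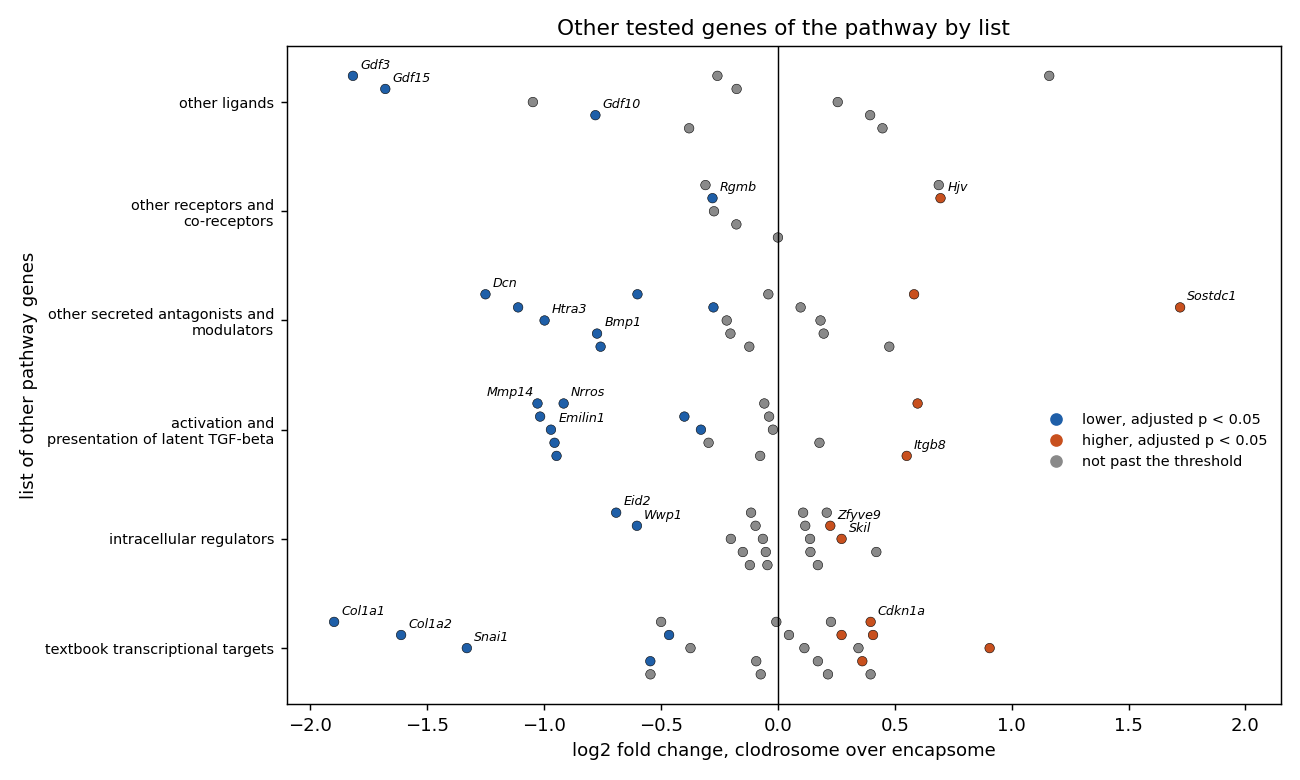
Log2 fold change (clodrosome over encapsome, x axis) of the 91 other tested genes of the pathway by list (y axis), where a gene on more than 1 list is drawn in each. Blue points are lower and orange points higher at an adjusted p under 0.05 in edgeR, grey points did not pass, and the named genes have the smallest p among those that passed; Sostdc1 lies farthest right at 1.72 and Col1a1 farthest left at -1.90.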

How the data were processed

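Polyadenylated RNA of 6 dorsal skin libraries was measured, 3 per group. The submitters' processing notes name mm10 and, as tools, DESeq2 1.34.0, featureCounts 1.6.2, HISAT2 2.2.1, StringTie 2.2.1 and Trimmomatic 0.36. Per the file headers, featureCounts made the deposited table of unnormalised counts on an Ensembl annotation of GRCm38, with gene positions and lengths. The command recorded there sets no option for pairs, strand or multiply mapped reads. Even counts made up 63.6% to 69.7% of the counts from 1 to 20, as when both read ends are counted, so counts exceed fragments and antisense overlaps cannot be separated. Of the 44 genes, 16 share exonic bases with another gene, 2 (Tgfb3, Bmp5) more than 10%.

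Count columns were tied to groups by name. Symbols were found for 99.4% of identifiers. Pairs of same-group libraries differed by a chi-square of 9.93 to 53.0 per gene, so no library appeared under more than 1 name within its group. Libraries of different groups were not compared in this way. Genes were tested with edgeR 4.0.16 (R 4.3.3, quasi-likelihood, TMM factors 0.982 to 1.02, filterByExpr with minimum count 10 and total 15), with Benjamini-Hochberg adjustment over 17988 genes and a threshold of 0.05. All 44 genes passed the filter. SE is the size of the log2 fold change over the root of its F statistic, and the common biological coefficient of variation was 0.126. CPM are counts over the TMM-scaled library size, and positive fold changes mean higher in clodrosome skin. A count of 0 allows up to 0.0502 CPM in clodrosome A and 0.166 to 0.228 CPM elsewhere (3 fragments, taken as 6 counts, counting error only). The procedure was tested on simulated data.

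The 44 genes and all lists were chosen with earlier results of these data known. Every one of the 44 may be named, and those past the threshold are given in each library. From each list of other pathway genes up to 4 with the smallest p are named; the 7 ratio pairs were chosen after their values were seen. Alternatives were DESeq2 1.42.0, 3 other scalings, 2 other filters, the rRNA share as a term and the removal of each library.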

Additional observations from a re-analysis of the deposited data

How the results depend on the processing

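Of 570 alternative values for the 44 genes, 498 kept direction and side of the threshold, 24 lost the call, 23 gained it and 25 changed sign, none of the last among the 11 called genes. The number of the 44 called was 11, and 14 with DESeq2, 16 without the low-count filter and with the rRNA share as a term, and 11 or 12 with other scalings or a minimum mean of 1 CPM. Leaving out 1 library gave 5 to 13, with 6 without clodrosome C, 5 without encapsome B and 6 without encapsome C. The same removals gave 2477 to 4396 of all genes (2642 without clodrosome C, 2477 without encapsome B, against 4035) and 22 to 35 of the other pathway genes (22 without clodrosome C, against 37). Fewer libraries entered each of these fits.

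Sign changes concerned 8 genes, none past the threshold, whose log2 fold changes lay between -0.16 and 0.05. Bmpr2 was 0.027 under upper-quartile scaling, 0.026 with library totals and 0.0060 without the filter, and -0.048 to 0.027 without 1 library. Id4 was 0.031, 0.027 and 0.0068 in the same order, 0.0022 with a minimum mean of 1 CPM, 0.126 with the rRNA term and -0.18 to 0.14 without 1 library. With the rRNA term Acvr1 was 0.012 and Bambi 0.094. Without 1 library Bmp5 ranged from -0.23 to 0.18, Acvr1 from -0.11 to 0.0099, Acvr2a from -0.11 to 0.025, Smad9 from -0.53 to 0.23, Smad7 from -0.030 to 0.158 and Bambi from -0.28 to 0.034. The cause was not tested.

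No paired analysis was possible because the count columns carry none of the replicate numbers in the sample titles. How far depth or the number of libraries limits the calls was not tested.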

Other observations

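In clodrosome skin 9.41% of all genes tested with edgeR were higher and 13.0% lower. Beside these shares, marker genes of other cell types, counted as higher and lower among those tested, were as follows. Blood endothelial markers gave 4 and 0 of 10, smooth muscle and pericyte markers 2 and 0 of 7, and skeletal muscle markers 4 and 0 of 7. Differentiated keratinocyte markers gave 1 and 4 of 8, with Lor at a log2 fold change of -2.18 and Krt10 at -1.36, both genes of the cornifying epidermis. Dermal papilla markers gave 0 and 2 of 10, with Crabp1 at -2.29, while 4 of the 10 had positive fold changes that did not pass. Neutrophil markers gave 2 and 0 of 7, with Retnlg at 2.07, while 3 of the 7 had negative fold changes that did not pass. Adipocyte markers gave 0 and 1 of 6, and T cell markers 0 and 0 of 7 (4 at an unadjusted p under 0.05, and 1, Cd4, past the threshold in DESeq2). Among hair follicle markers the transcription factors Lhx2 and Sox9 rose by 1.14 and 0.71 on the log2 scale. The part of these genes in the values of the 44 signalling genes was not tested.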
